A study of Mus musculus with 16 samples.

Results

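Lipid uptake and fatty acid binding in the lymph node is described here through 8 genes, taken by their symbols from the 48440 gene rows of the count matrices: Cd36, Fabp4, Fabp5, Lpl, Gpihbp1, Plin2, Apoe and Pltp. They were chosen by measured values of these data, among them the level of Fabp5 in floor lymphatic endothelial cells of live draining against live non-draining nodes, so values of that cell type in comparisons that include a live group are given as a description, with no test. Single cells from inguinal lymph nodes of C57Bl/6 mice aged 8 weeks were enriched for podoplanin, a surface protein of lymphatic endothelium and reticular fibroblasts, and sequenced as 16 libraries. Live MC38 cells, a murine colorectal carcinoma line, or MC38 cells fixed with paraformaldehyde had been injected under the skin of 1 flank (500000 cells) 12 days before. The live draining group (3 libraries) was the node on the side of a growing tumor, and the live non-draining group (3) was the contralateral node. The fixed draining (3) and fixed non-draining (3) groups were the corresponding nodes after fixed cells, and naive nodes (4) came from mice given no cells, although the label of every library, the naive ones included, names MC38 as its cell line. Nothing in the labels ties a replicate letter to a mouse, so the spread between libraries may in part be technical.

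Fatty acids reach the lymph node bound to albumin or inside lipoproteins. Lipoprotein lipase (Lpl) cuts the triglyceride of lipoproteins, and Gpihbp1 is the protein that carries the enzyme to the lumen of capillaries and holds it there. Cd36 is a scavenger receptor that takes up long-chain fatty acids and oxidized lipoproteins, Fabp4 and Fabp5 bind fatty acids in the cytosol, and Plin2 coats the lipid droplets in which cells store them. Apoe is the ligand by which cell-surface receptors take up lipoproteins, and Pltp moves phospholipids between lipoproteins. Fabp4 and Cd36 are textbook genes of fat cells, capillary endothelium and macrophages, and are known targets of the nuclear receptor PPARγ.

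After filtering, 50386 cells remained of 68741 barcodes, with 1065 to 5132 cells and 7486725 to 48945961 UMIs (unique molecular identifiers, each standing for 1 captured RNA molecule) per library and a median of 3421 to 5098 UMIs per cell. Clusters holding 41248 cells were named from marker genes, none of them a gene described here, and 26 types with enough cells are reported. All names mean "like" the type whose markers they carry, as in cLEC-like. Ceiling and floor lymphatic endothelial cells (cLECs, fLECs) line the outer and inner wall of the subcapsular sinus. The summed level of the 6 cLEC markers was 4659.8 to 4908 CPM in naive cLECs and 539 to 739 CPM in naive fLECs. CPM are counts per 1000000 UMIs of all cells of that type in a library, scaled by TMM for the 8 genes and unscaled for marker sums and for single clusters, with no correction for length. A pair of lymphatic clusters that were given no subset name are called by their leading genes, the Clec4g-led and the Igfbp5-led LECs. By the marker score used for naming, the Igfbp5-led LECs were most like cLECs, with all 6 cLEC markers detected. They scored 0.76, against 0.58 to 0.78 in the clusters named cLEC. They were kept apart because their leading genes included a marker of another class. Any 2 libraries shared 0 to 10 cell barcodes.

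Where each gene lies was taken from the gencode vM21 annotation of GRCm38, the build the files use. Fabp4 (chr3:10204088-10208576, minus strand) and Fabp5 (chr3:10012548-10016607, plus strand) are neighbors on chromosome 3. Cd36 spans chr5:17781690-17888801 and Plin2 chr4:86648386-86670060, both on the minus strand. Lpl is at chr8:68880491-68907448 and Gpihbp1 at chr15:75596628-75599481, both on the plus strand. Apoe is at chr7:19696109-19699188 and Pltp at chr2:164839518-164857711, both on the minus strand, and Pltp overlaps Ctsa, which runs on the other strand. RefSeq promoters (GRCm38.p6, 250 bases before to 50 after a start) were at hand for 4 of the 8 genes. PPARγ binds with its partner RXR to paired copies of the half-site AGGTCA, and the 2 members with that half-site are printed to show where it lies. In both it is on the reverse strand and reads TGACCT in the printed strand, in capitals below, with its first base at position 23 of the Cd36 window (chr5:17835847-17836146, minus strand) and position 33 of the Plin2 window (chr4:86670010-86670309, minus strand). The Cd36 window lies at a start within the span of the gene, and the Plin2 window at the upstream end of its gene.
Cd36: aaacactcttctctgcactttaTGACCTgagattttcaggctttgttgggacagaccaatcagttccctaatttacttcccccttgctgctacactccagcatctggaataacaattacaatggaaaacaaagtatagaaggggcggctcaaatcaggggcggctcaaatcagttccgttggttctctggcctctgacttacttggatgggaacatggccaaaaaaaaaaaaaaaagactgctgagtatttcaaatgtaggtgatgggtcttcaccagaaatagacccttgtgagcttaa
Plin2: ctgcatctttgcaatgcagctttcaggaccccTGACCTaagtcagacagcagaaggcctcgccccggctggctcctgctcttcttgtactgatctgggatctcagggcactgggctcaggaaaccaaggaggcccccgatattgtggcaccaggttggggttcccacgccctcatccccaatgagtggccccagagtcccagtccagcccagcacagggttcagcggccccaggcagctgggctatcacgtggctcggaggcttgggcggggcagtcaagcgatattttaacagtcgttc
AGGTCA on either strand was in 5340 of 32851 such windows (16.3%), and in neither the Pltp window nor the 3 Apoe windows. None of the 6 windows held the half-site doubled 1 base apart (the DR1 arrangement, in 0.0396% of all windows) or 4 bases apart (DR4, 0.0152%). The E-box CACGTG, in 7.15% of windows, was found once in Plin2. These letters describe the windows and were not tested as sites.

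Each gene had its own range of cell types, shown in the plot of levels over types and groups. In naive nodes Cd36 was highest in cLECs at 1707 ± 176 CPM (SD, n = 4), followed by cortical LECs (CorLECs) at 999 ± 110.2, Igfbp5-led LECs at 613 ± 141 and blood endothelial cells at 285 ± 96.4, and the library ranges of these 4 types did not overlap. The cLECs gave 74.5% of all Cd36 UMIs in named and unnamed cells. Fabp4 was shared by the same lining cells and by vessel walls: 3307 ± 362 CPM in Igfbp5-led LECs, 2288 ± 1265 in blood endothelial cells, 2063 ± 381 in pericytes and smooth muscle and 1779 ± 235 in cLECs, each of which overlapped with the one before it. The next type, CorLECs, was lower without overlap at 867 ± 196 CPM. Fabp5, by contrast, was highest in follicular dendritic cells (FDCs, 973 ± 159 CPM) and migratory dendritic cells (778 ± 127), whose ranges overlapped, and was under 100 CPM on average in MRCs, the third in order (97.7 CPM).

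**Figure D1:**
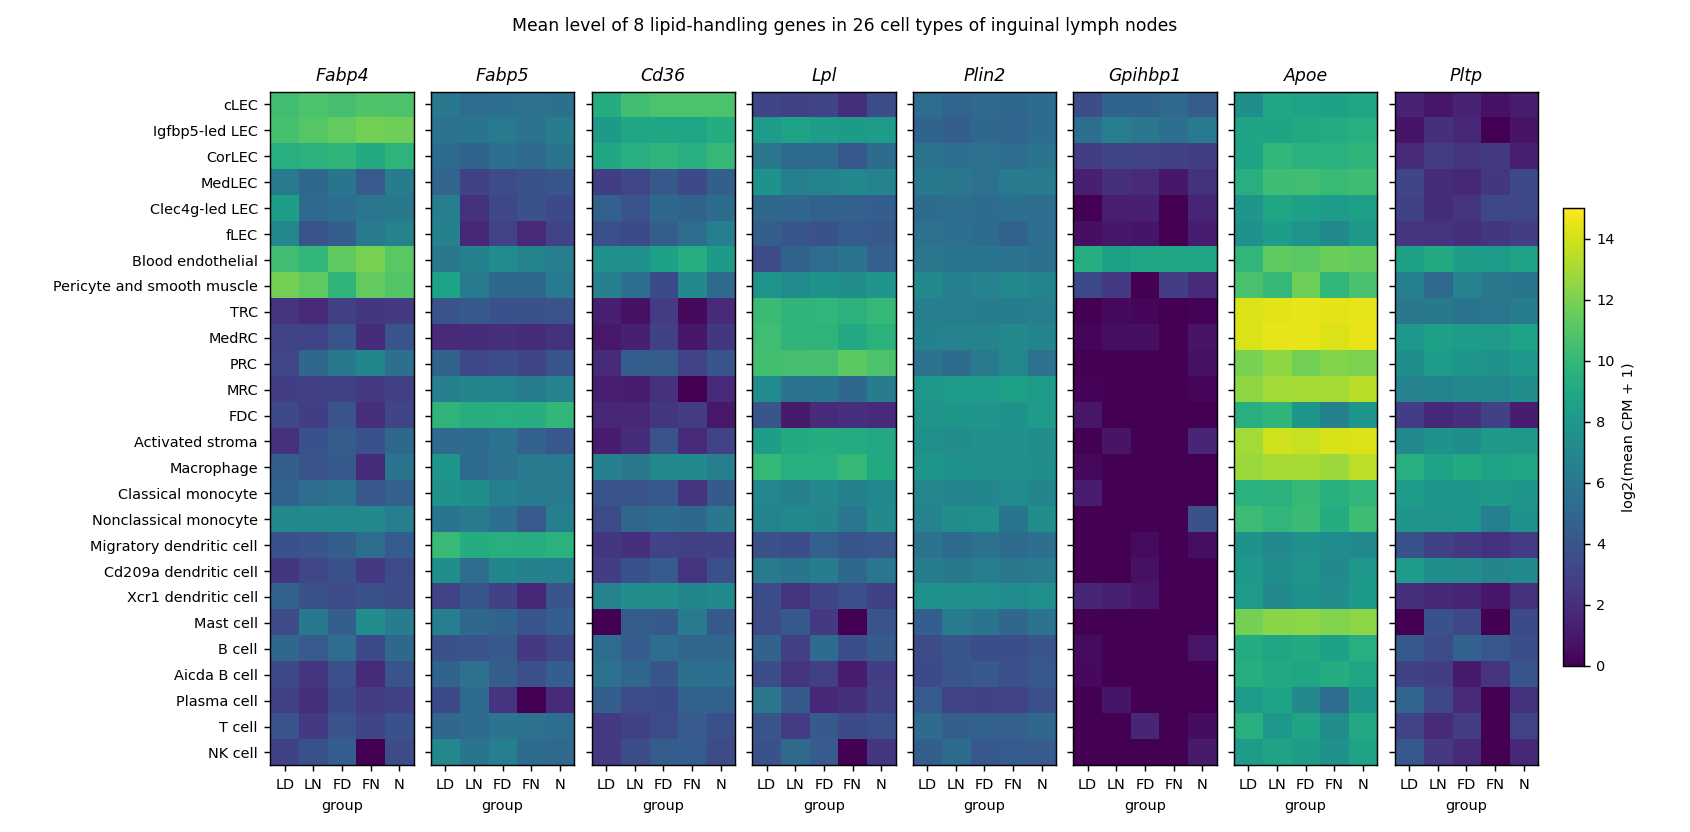
Mean level of the 8 genes, as log2(CPM + 1), in 26 cell types (rows) of live draining (LD), live non-draining (LN), fixed draining (FD), fixed non-draining (FN) and naive (N) nodes. Cd36 is brightest in cLECs, Gpihbp1 in blood endothelial cells, Lpl in reticular cells and macrophages, and Apoe has signal in every type.

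The lipase and its anchor were highest in different cells. Lpl was a gene of reticular cells, at 1798 ± 288 CPM in perivascular reticular cells (PRCs), 999 ± 29.5 in T-zone reticular cells (TRCs), 809.6 ± 96.6 in medullary reticular cells (MedRCs), 555 ± 109.9 in macrophages and 539 ± 23.4 in activated stroma of naive nodes. Gpihbp1 was at 451 ± 83.1 CPM in blood endothelial cells, 72.6 ± 24.9 in Igfbp5-led LECs and 20.5 ± 2.22 in cLECs, and 62.5% of its UMIs came from blood endothelial cells. Igfbp5-led LECs held both, with Lpl at 303 ± 28.7 CPM. Plin2 was highest in marginal reticular cells (MRCs, 299 ± 29.3 CPM) and FDCs (299 ± 69.4). Pltp was highest in macrophages (454 ± 58.8 CPM), MedRCs (419.5 ± 18.5) and blood endothelial cells (399 ± 131), which overlapped. Apoe reached 22861 ± 265 CPM in MedRCs and 22331 ± 652 in TRCs. It was also at 537 ± 104 CPM in T cells and 692 ± 131 in B cells, which are taken here as background, and levels of that size in other types, among them cLECs at 462 ± 25.6, CorLECs at 886 ± 152 and Xcr1 dendritic cells at 284 ± 61.9, are not read here as expression by those cells.

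Genes whose level over the 26 types was most like that of a member were looked up among 14692 genes, as a description with Pearson's r of log2(mean CPM + 1) over types. Fabp4 was most like Tinagl1 (r = 0.94), Podxl (0.93) and Lmcd1 (0.93), and Gpihbp1 most like Dysf (0.94), 4930578C19Rik (0.92) and Palmd (0.92). Cd36 was most like Edn1 (0.86), which is also one of the cLEC markers, and Pkn3 (0.86). Plin2 was most like Spire1 (0.85), Apoe most like Pla2g15 (0.87) and Pltp most like Lrp1 (0.89). Fabp5 had the weakest likeness, with Fam32a at 0.77. The types share libraries and differ in depth, and no p is attached to these values.

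Whether the members differed between the node draining a live tumor and its contralateral node was asked in each type. With edgeR's quasi-likelihood test on UMI sums per library and Benjamini-Hochberg adjustment over all genes of a type, 32 of 136 gene and type pairs were called at an adjusted p under 0.05, 19 higher and 13 lower in live draining nodes, with a median log2 fold change of 0.14. Over all genes and types, 8.0% of tests were called. Outside fLECs it was 29 of 129 (17 higher, 12 lower), against 7.04% of all genes. By type, the share of all genes called between the live nodes was 24.3% in cLECs, 18.3% in MRCs, 18.1% in MedLECs, 13.5% in activated stroma, 8.63% in migratory, 1.27% in Xcr1 and 1.01% in Cd209a dendritic cells, 8.19% in MedRCs, 7.15% in macrophages, 5.81% in TRCs, 5.73% in Clec4g-led LECs, 4.68% in pericytes, 3.09% in T cells, 1.68% in CorLECs and 0.0492% in blood endothelial cells. Without Apoe, 22 of 110 pairs were called. A pair was tested only where its counts passed a filter, which some genes pass through the group in which they are high: Cd36 was tested in 15 types and called in 1, Fabp4 in 19 and 4, Fabp5 in 20 and 8, Lpl in 19 and 5, Gpihbp1 in 3 and 1, Plin2 in 21 and 1, Pltp in 13 and 2, and Apoe in 26 and 10, fLECs included. All 8 calls of Fabp5 were rises, but they include the fLEC value by which the genes were chosen, which is no support. The only call of Cd36 was a fall.

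Cd36 fell in the cells where it was highest. In cLECs it was at 621, 542 and 715 CPM in the live draining libraries, against 1500.0, 1406 and 1342 CPM in the live non-draining ones (log2 fold change -1.18, SE 0.09, adjusted p = 1.5e-11). The fixed draining libraries had 1876, 1812 and 1523 CPM, the fixed non-draining ones 1698, 1863 and 1702 and the naive ones 1500.1, 1909.9, 1775 and 1642. The 3 live draining libraries were thus below each of the other 13, and 24.3% of all genes tested in cLECs were called in this comparison. Thinned to 2000 UMIs per cell, 53.5% of live draining cLECs held a Cd36 UMI, against 74.1% of live non-draining ones (75.9% and 81.6% unthinned). In T cells, taken as background, the thinned shares were 1.39% and 1.07%, at a median of 4459 UMIs per T cell and 8461.5 per cLEC.

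The cLECs of both nodes sat in 4 clusters, but in different proportions: the Pglyrp1-led, Gm43023-led, Fosb-led and Egr2-led clusters held 378, 278, 119 and 51 live draining cells, against 87, 53, 178 and 131 live non-draining cells. Within each of them the pooled level of Cd36 was lower in live draining cells. It was 559 against 1465 CPM in the Pglyrp1-led cluster and 629 against 1812 CPM in the Gm43023-led cluster. It was 669 against 1088 CPM in the Fosb-led cluster and 867 against 1462 CPM in the Egr2-led cluster. The cLEC markers together were also lower, at 3333 to 3584 CPM in live draining cLECs against 3938 to 4424 in live non-draining ones with all 6 detected, the fibroblastic list was at 299.6 to 324 against 74.5 to 103 CPM, the activated stroma list at 2537 to 2950.4 against 7444 to 8751 CPM, and the macrophage list at 19.3 to 22.2 against 34.4 to 42.0 CPM with Vsig4 at 0. Their part in the result was not tested.

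**Figure D2:**
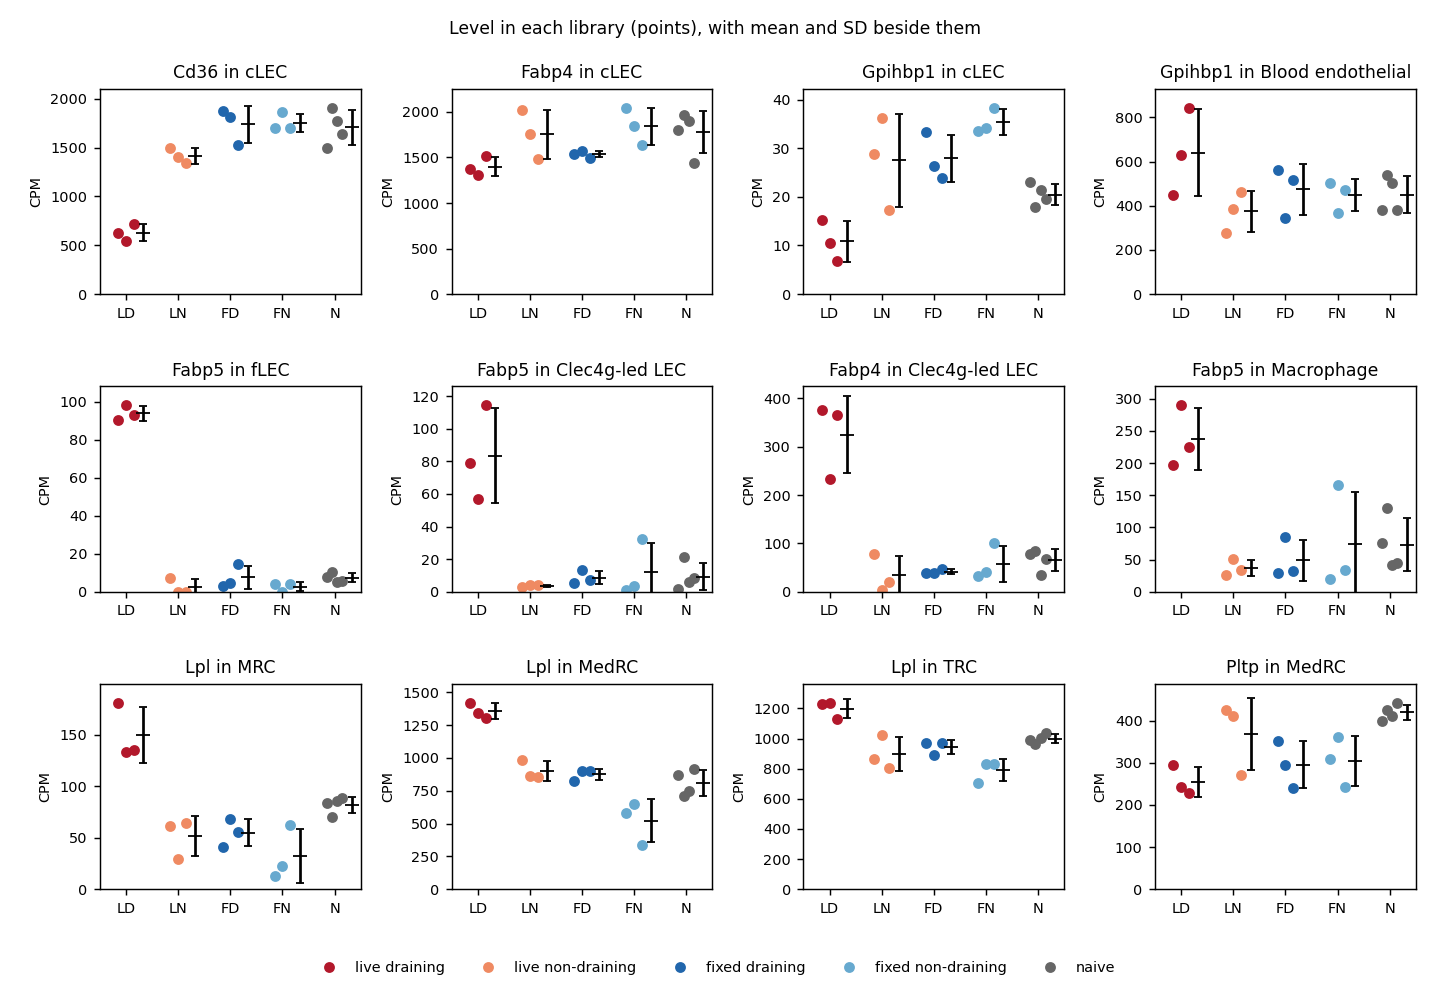
Level of 12 gene and type pairs in each library (points, CPM), with the mean and SD of each group (LD live draining, LN live non-draining, FD fixed draining, FN fixed non-draining, N naive). Cd36 in cLECs is lowest in the 3 live draining libraries (542 to 715 CPM), Fabp5 is highest there in fLECs, Clec4g-led LECs and macrophages, and Lpl in MRCs, MedRCs and TRCs.

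Elsewhere Cd36 was not called between the live nodes. CorLECs held 365, 651 and 446 CPM in live draining libraries and 899, 682 and 474 in live non-draining ones, which overlap (log2 fold change -0.52, SE 0.19, adjusted p = 0.18). Igfbp5-led LECs held 266, 259 and 309.8 against 527, 354 and 523 CPM, with no overlap and yet no call (log2 fold change -0.77, SE 0.23, adjusted p = 0.079). In blood endothelial cells it was 297, 174 and 75.3 against 69.1, 212 and 303 CPM, a spread of several-fold in both groups, each live draining value resting on 16 to 31 cells. In fLECs, where the level in B cells of the same nodes (a mean of 40.6 and 19.7 CPM) was not exceeded, Cd36 was at 4.90, 8.51 and 22.0 against 5.30, 8.70 and 13.5 CPM.

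Both fatty acid binding proteins were higher in floor and Clec4g-led LECs of live draining nodes. Fabp5 in fLECs, 1 of the values for which these genes were picked, was at 90.6, 98.2 and 92.8 CPM in live draining nodes, against 7.06, 0 and 0 CPM in live non-draining ones (log2 fold change 4.60). The fixed draining, fixed non-draining and naive libraries held 3.15 to 14.6, 0 to 4.06 and 5.02 to 10.4 CPM. Only the live draining fLECs were above the T cells of their own nodes, which had 30.5 ± 13.3 CPM there (SD, n = 3) and 37.3 ± 15.9 CPM in live non-draining nodes. Fabp4 had the same pattern in fLECs between the live nodes, with 118, 129 and 119.9 against 17.7, 7.25 and 17.5 CPM (log2 fold change 3.00), but naive fLECs, at 59.2, 92.2, 77.0 and 180.0 CPM, overlapped with live draining ones.

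Most live draining fLECs were in a cluster that held few cells of the other groups. The Cxcl9-led cluster had 642 of the 760 live draining fLECs, against 10 live non-draining, 17 fixed draining, 11 fixed non-draining and 35 naive cells. Fabp5 was at 96.5 CPM in its live draining cells and 29.4 in its naive cells, while Fabp4 was at 119.5 and 944 CPM. In the fLEC clusters that both live nodes shared, pooled Fabp5 was at 22.8 against 2.05 CPM (Lamb3-led), 26.3 against 6.25 CPM (Cxcl1-led) and 22.3 against 0 CPM (Mucl2-led). Fabp4 there was at 22.8 against 20.5, 114 against 10.6 and 17.9 against 11.7 CPM in the same order. The list of migratory dendritic cell markers, a type high in Fabp5, was at 246 to 318 CPM in live draining fLECs against 114 to 248 in live non-draining ones, and the cLEC list, a type high in Fabp4, at 196 to 241 against 349 to 395 CPM. Their part in the fLEC values was not tested.

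The Clec4g-led LECs moved the same way. Fabp5 was at 79.1, 57.1 and 115 CPM in live draining libraries, against 3.02, 3.80 and 4.19 CPM in live non-draining ones, the second group resting on 4 UMIs in all (log2 fold change 4.48, SE 0.69, adjusted p = 2.5e-05). This pair may have passed the filter on low counts through the live draining group in which it is high. It was also called without that filter. Fabp4 was at 375, 233 and 366 against 78.6, 3.80 and 21.0 CPM (log2 fold change 2.71, SE 0.32, adjusted p = 3.3e-07). In neither gene did the live draining libraries overlap with any of the other 13, the highest of which had 32.4 CPM of Fabp5 and 101 CPM of Fabp4, both in fixed non-draining nodes. In this type 5.73% of all genes were called. After thinning, 12.4% of live draining Clec4g-led LECs held a Fabp5 UMI and 0% of live non-draining ones (36.6% and 4.45% unthinned, 88 and 97 cells). For Fabp4 it was 24.9% and 3.64% (52.4% and 16.1% unthinned). The thinned Fabp5 share in T cells was 5.48% and 5.26%. Migratory dendritic cell markers summed to 197 to 220.5 against 93.4 to 188 CPM in the Clec4g-led LECs and cLEC markers to 444 to 556 against 325 to 471 CPM, and their part was not tested.

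In medullary LECs (MedLECs) Fabp5 was at 29.8, 21.1 and 33.8 CPM in live draining nodes, against 12.6, 2.94 and 3.90 CPM in live non-draining ones (log2 fold change 1.86, SE 0.44, adjusted p = 0.0032). These levels are within those of T cells of the same nodes. In cLECs the difference was smaller, with 57.0, 70.5 and 74.2 against 43.1, 37.5 and 37.6 CPM (log2 fold change 0.74, SE 0.15, adjusted p = 0.00034), and of the other 13 libraries only 1, a fixed non-draining one at 57.5 CPM, reached the live draining range. Fabp4 went the other way in cLECs, at 1374, 1311 and 1512 against 2022, 1755 and 1481 CPM, with overlap and a fall (log2 fold change -0.33, SE 0.10, adjusted p = 0.013) that lost its call without live draining replicate B (adjusted p = 0.070) or live non-draining replicate A (adjusted p = 0.13). Igfbp5-led LECs, the type with the most Fabp4, held 1666, 1288 and 1817 CPM in live draining nodes and 2617, 1673 and 1936 CPM in live non-draining ones (log2 fold change -0.39, SE 0.18, adjusted p = 0.38). Blood endothelial Fabp4 was at 2666, 794 and 552 against 971, 1010.1 and 904 CPM and no member was called in blood endothelial cells, where 0.0492% of all genes were. Adipocyte markers, of another cell rich in Fabp4, summed to 0 to 1.61 CPM in live draining cLECs and 0 to 3.00 CPM in live non-draining ones.

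Fabp5 was also higher in several immune cell types of live draining nodes. In macrophages it was at 197, 290.2 and 225 CPM in live draining nodes, against 25.6, 50.2 and 33.0 CPM in live non-draining ones (log2 fold change 2.83, SE 0.44, adjusted p = 0.00021), and all 3 live draining libraries were above every other library. A thinned Fabp5 UMI was in 18.7% of live draining macrophages and 4.95% of live non-draining ones (25.1% and 11.3% unthinned). The median macrophage had 3695 UMIs and the median T cell 4459, so that the live non-draining share was at the T-cell background. Of the 2 macrophage clusters, the Retnla-led one held 530 of 636 live draining and 123 of 215 live non-draining macrophages. Pooled Fabp5 was at 267 against 52.6 CPM in it and 40.3 against 11.1 CPM in the Cd5l-led cluster. The Macrophage markers together were at 8374 to 8958 against 7915 to 8859 CPM, migratory dendritic cell markers at 128 to 171 against 126 to 337 CPM, and fibroblastic markers at 262 to 299 against 40.6 to 235 CPM. What part these have was not tested.

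**Figure D3:**
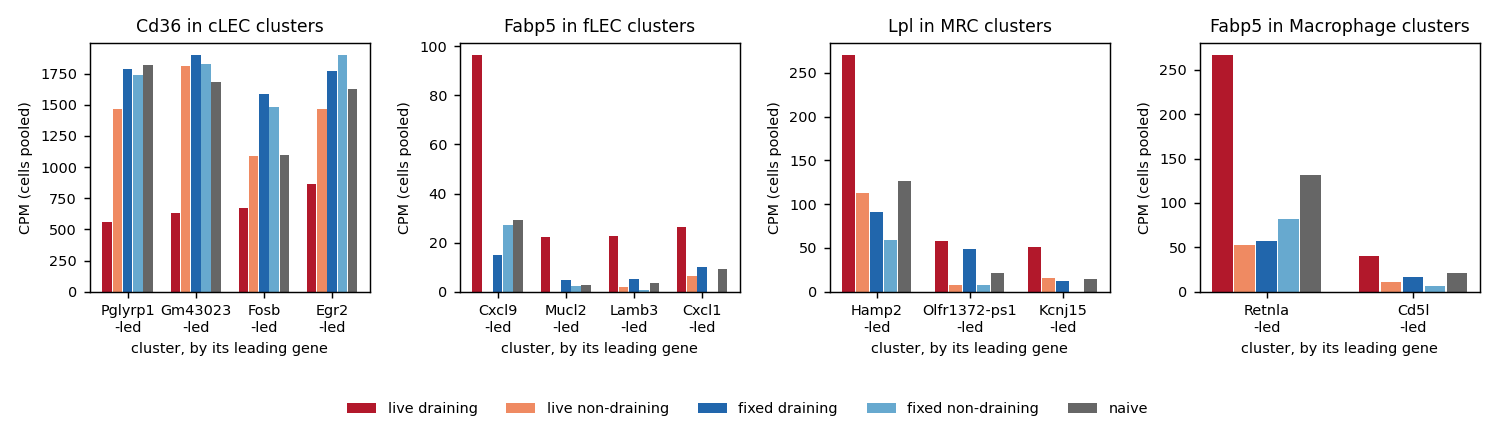
Level of a gene in the clusters of 1 type, with the cells of each group pooled (bars, CPM; no bar where a group has fewer than 10 cells). Within each of the 4 cLEC clusters the live draining bar of Cd36 is below the live non-draining one, and within the MRC clusters of Lpl and the macrophage clusters of Fabp5 it is above.

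Dendritic cells and mural cells also rose in Fabp5. Cd209a dendritic cells held 136, 251 and 149 CPM in live draining libraries, against 37.9 to 41.3 CPM in the 3 live non-draining ones (log2 fold change 2.18, SE 0.32, adjusted p = 0.00018). Migratory dendritic cells, the source of 48.7% of all Fabp5 UMIs, held 978, 1253 and 1032 against 920.1, 469 and 493 CPM (log2 fold change 0.77, SE 0.17, adjusted p = 0.0042). The groups did not overlap in either type, although in Cd209a dendritic cells 1 fixed draining and 1 fixed non-draining library lay within the live draining range. Pericytes and smooth muscle rose by the test with only 2 live draining libraries, of 721 and 101 CPM and 16 and 12 cells, against 84.7, 29.1 and 102 CPM (log2 fold change 2.39, SE 0.53, adjusted p = 0.0083), and migratory dendritic cell markers were at 47.7 to 1028 CPM in those libraries against 102 to 131. FDCs, the type with the most Fabp5, were at 812, 956 and 776 against 752, 408 and 803 CPM, which overlap.

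Lpl rose in the MRCs, MedRCs and TRCs of live draining nodes. In MRCs, the reticular layer under the sinus floor, it was at 181, 134 and 135 CPM in live draining libraries, against 61.5, 29.3 and 64.3 CPM in live non-draining ones (log2 fold change 1.51, SE 0.20, adjusted p = 1.6e-06), and every live draining library was above all 13 others. A thinned Lpl UMI was found in 17.6% of live draining and 7.31% of live non-draining MRCs (44.9% and 19.0% unthinned), with 2.38% and 1.07% in T cells. The pooled level was higher in live draining cells of each MRC cluster, at 271 against 112 CPM in the Hamp2-led, 58.2 against 7.43 CPM in the Olfr1372-ps1-led and 51.0 against 15.7 CPM in the Kcnj15-led cluster. The 5 TRC markers, a type with more Lpl, summed to 1748 to 2191 CPM in live draining and 2344 to 3611 CPM in live non-draining MRCs. The PRC markers, of the type with the most Lpl, were at 4.22 to 8.76 against 1.59 to 5.82 CPM, and the MedRC markers at 2106 to 2515 against 3065 to 5545 CPM. Their part was not tested. Of all genes in MRCs, 18.3% were called.

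MedRCs held 1422, 1347 and 1304 CPM of Lpl in live draining libraries, against 986, 859.6 and 852 CPM in live non-draining ones (log2 fold change 0.59, SE 0.11, adjusted p = 0.00034). TRCs held 1233, 1239 and 1127 against 865, 1023 and 804 CPM (log2 fold change 0.42, SE 0.08, adjusted p = 0.00025). In both, the 3 live draining libraries were the highest of all 16. TRC markers summed over each library's MedRC cells were at 3281 to 3743 against 2262 to 2725 CPM and PRC markers at 81.6 to 90.3 against 35.5 to 59.8 CPM, and their part was not tested. MedLECs rose as well, with 188, 217 and 184 against 110.2, 96.9 and 56.5 CPM (log2 fold change 1.14, SE 0.21, adjusted p = 0.00028), and fibroblastic markers in them were at 195 to 267 against 52.8 to 69.0 CPM. Activated stroma was the exception, with a fall to 353, 240.3 and 432 CPM against 619, 422 and 659 CPM (log2 fold change -0.73, SE 0.16, adjusted p = 0.0027). There the MRC markers, of a type low in Lpl, were at 25799 to 33451 against 11443 to 17896 CPM and the activated stroma's own at 6168 to 6624 against 10833 to 11189 CPM, and with another normalization before clustering the difference turned round (log2 fold change 0.57). PRCs, the type with the most Lpl, were at 1369.8, 1198 and 1690.2 against 1318, 1784 and 1493 CPM, which overlap.

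Gpihbp1, which holds the enzyme on capillaries, had no called difference where it is mainly made. Blood endothelial cells held 449, 629.5 and 845 CPM in live draining libraries and 276, 387 and 461 CPM in live non-draining ones, with overlap (log2 fold change 0.77, SE 0.24, adjusted p = 0.13). In a simulation with the depth and spread of these cells, 32% of 2-fold changes in genes drawn from all levels were called between the live nodes. The share for genes as high as Gpihbp1 was not worked out, so it does not tell how easily such a difference in Gpihbp1 could be missed. In cLECs it was at 15.3, 10.6 and 6.86 CPM (93 UMIs in all) against 28.9, 36.3 and 17.3 CPM (94 UMIs), a fall with no overlap (log2 fold change -1.29, SE 0.25, adjusted p = 0.00021). Lymphocytes had next to no Gpihbp1, with at most 1 UMI in the B cells of live draining nodes and 0 in their T cells. Igfbp5-led LECs held 35.0, 43.9 and 51.6 against 61.9, 83.1 and 103 CPM, without overlap and with no call (log2 fold change -0.86, SE 0.37, adjusted p = 0.32).

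Plin2, the droplet coat, changed little. In MRCs it was at 253, 265 and 232 CPM in live draining libraries and 362, 292 and 268 CPM in live non-draining ones (log2 fold change -0.32, SE 0.12, adjusted p = 0.058). The single call was in cLECs, with 36.1, 45.3 and 36.9 against 27.7, 30.3 and 26.4 CPM (log2 fold change 0.50, SE 0.17, adjusted p = 0.027), and these values overlap with those of fixed and naive nodes and are close to T cells (36.4 and 22.5 CPM on average). The call was lost without any 1 of live draining replicate B, live non-draining replicate A and live non-draining replicate C, and with DESeq2 in place of edgeR. Macrophages held 246, 223 and 242 against 179.5, 210.0 and 228 CPM, and no call was made.

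Of the lipoprotein genes, Apoe was lower in live draining activated stroma and MRCs, while TRCs (log2 fold change -0.18, SE 0.07, adjusted p = 0.14) and MedRCs (log2 fold change -0.27, SE 0.10, adjusted p = 0.083), which have the most of it, gave no call. Activated stroma held 6921, 6258 and 9861 CPM in live draining libraries, against 16305, 14613 and 16112 CPM in live non-draining ones (log2 fold change -1.03, SE 0.14, adjusted p = 1.2e-05). As given above for Lpl, these live draining cells had more of the MRC markers, of a type with less Apoe, and less of their own markers. The part of this in the fall of Apoe was not tested. MRCs held 6051, 5515 and 5635 against 8014, 8107 and 7589.8 CPM (log2 fold change -0.46, SE 0.13, adjusted p = 0.0091), a difference that turned round with another normalization before clustering (log2 fold change 0.21). In T cells Apoe was higher, with 587, 685 and 931 against 284, 238 and 244 CPM (log2 fold change 1.50, SE 0.18, adjusted p = 2.8e-06), as it was in Xcr1 dendritic cells (log2 fold change 1.00) and migratory dendritic cells (0.66), while it was lower in cLECs at 192, 181 and 160.0 against 477, 414 and 463 CPM (log2 fold change -1.35, SE 0.09, adjusted p = 2.7e-13), CorLECs (-1.28) and MedLECs (-0.92). After thinning, 48.4% of live draining and 29.2% of live non-draining T cells held an Apoe UMI (66.1% and 52.3% unthinned), and this background was thus higher in live draining nodes while the LEC levels were lower. Fibroblastic markers in T cells were at 189 to 242 against 26.7 to 76.0 CPM, and their part was not tested.

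Pltp, which remodels lipoproteins, rose in macrophages to 688, 716 and 668 CPM in live draining nodes, against 412, 319.6 and 537 CPM in live non-draining ones (log2 fold change 0.69, SE 0.16, adjusted p = 0.009). Within the Retnla-led cluster it was 768 against 704 CPM and within the Cd5l-led cluster 189 against 133 CPM, and the first cluster made up more of the live draining macrophages. The call was lost without live non-draining replicate A or live non-draining replicate B. In MedRCs it was at 294, 241 and 228 against 425, 410.2 and 271 CPM, with overlap and a fall (log2 fold change -0.53, SE 0.13, adjusted p = 0.0055) that lost its call without live non-draining replicate A. Pltp overlaps Ctsa on the other strand, and whether reads were counted by strand is not given in the sources used here.

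**Figure D4:**
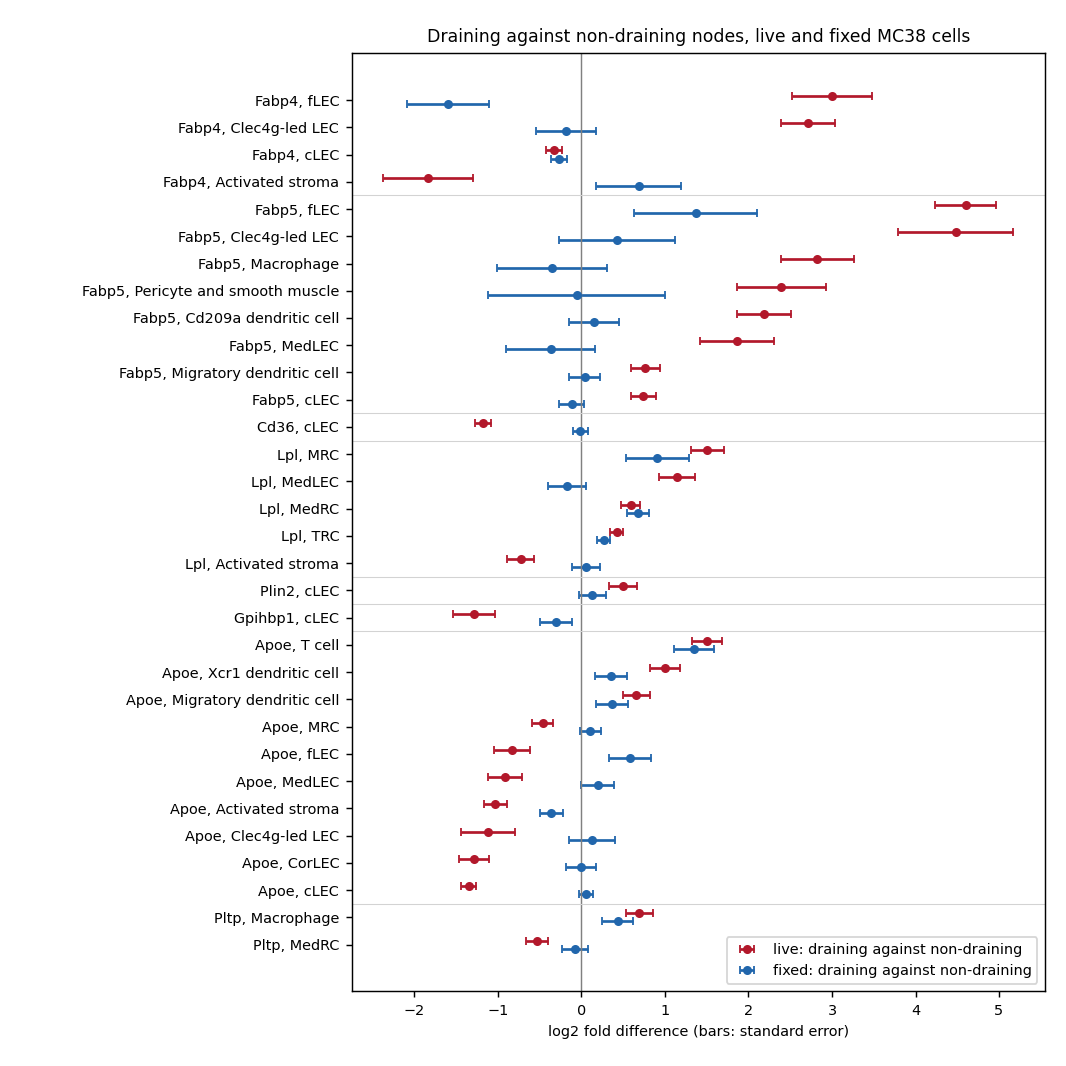
Log2 fold difference (bars: SE) of draining against non-draining nodes for every gene and type called between the live nodes, after live cells (red) and fixed cells (blue); fLEC values are a description. The red Fabp5 points are all above 0, Cd36 in cLECs is at -1.18, and the blue points of both lie nearer to 0.

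After fixed MC38 cells few of the members differed. In fixed draining against fixed non-draining nodes 5 of 134 pairs were called, 4 higher and 1 lower, against 0.167% of all tests. Lpl in MedRCs was at 823, 901 and 900.4 CPM in fixed draining and 577, 652 and 337 CPM in fixed non-draining nodes (log2 fold change 0.68, SE 0.13, adjusted p = 0.019), Fabp4 in pericytes at 821, 576 and 1324 against 3027 and 2284 CPM (log2 fold change -1.56, SE 0.31, adjusted p = 0.019, with 2 fixed non-draining libraries), and the other 3 were Apoe in T cells (log2 fold change 1.35), nonclassical monocytes (0.97) and pericytes (1.79). No pair was called without any 1 of fixed draining replicate B, fixed non-draining replicate A and fixed non-draining replicate C, 1 was without fixed non-draining replicate B and 2 without fixed draining replicate A. Lpl in MRCs was at 41.3, 67.9 and 55.2 against 12.5, 22.2 and 62.3 CPM, with overlap (log2 fold change 0.91, SE 0.38, adjusted p = 0.8), and Cd36 in cLECs gave a log2 fold change of -0.01 (SE 0.09).

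Whether the draining difference itself was larger after live than after fixed cells was tested as an interaction, which called 16 of 134 pairs (6 positive, 10 negative, against 3.09% of all tests), 14 of 127 outside fLECs (2.59%). It called Cd36 in cLECs (-1.17 (SE 0.13), adjusted p = 5.7e-08), Gpihbp1 in cLECs (-0.98 (SE 0.31), adjusted p = 0.029), Fabp5 in cLECs (0.86 (SE 0.21), adjusted p = 0.0051) and in Cd209a dendritic cells (2.04 (SE 0.45), adjusted p = 0.034), and Fabp4 in Clec4g-led LECs (2.90 (SE 0.51), adjusted p = 0.00058). Lpl was called in MedLECs (1.32 (SE 0.32), adjusted p = 0.0086). Lpl in MRCs (0.60 (SE 0.48), adjusted p = 0.56), MedRCs (-0.09 (SE 0.17), adjusted p = 0.89) and TRCs (0.16 (SE 0.11), adjusted p = 0.59) was not, nor was Fabp5 in macrophages (3.18 (SE 0.86), adjusted p = 0.056), so for these the live and fixed differences are not shown to differ. Leaving out 1 library of the 12 ended the call of Gpihbp1 in cLECs for 7 of them and of Fabp5 in Cd209a dendritic cells for 6, and that of Lpl in MedLECs only for fixed non-draining replicate A.

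Against naive nodes, with the same 4 naive libraries in each comparison, 40 of 136 pairs were called for live draining nodes (17 higher, 23 lower, against 9.57% of all tests), and outside fLECs 38 of 129 (16 higher, 22 lower, against 8.33%). For live non-draining nodes it was 5 of 136 (0.26%) and, outside fLECs, 3 of 129 (0.236%). It was 6 of 136 for fixed draining (0.878%) and 10 of 134 for fixed non-draining (0.803%). Cd36 in live draining nodes was lower than in naive ones in cLECs (log2 fold change -1.45), CorLECs (-1.04) and Igfbp5-led LECs (-1.15). Fabp4 was lower in Igfbp5-led LECs (-1.06) and cLECs (-0.35) and higher in Clec4g-led LECs (2.29). Fabp5 was higher in Clec4g-led LECs (3.00), macrophages (1.67), classical monocytes (1.44) and cLECs (0.54). Lpl was higher in MRCs (0.88), MedRCs (0.75) and macrophages (0.91), the last of which turned round with another normalization before clustering (-0.31).

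Some of the contrast between nodes lay on the other side. Lpl in fixed non-draining nodes was below naive nodes in MRCs (12.5, 22.2 and 62.3 against 83.8, 70.2, 85.4 and 88.5 CPM, log2 fold change -1.47, adjusted p = 0.035), in MedRCs (-0.57) and in TRCs (-0.35). The call in MRCs was lost without any 1 of 5 libraries. Pltp was below naive nodes in MRCs of live draining (-0.77) and live non-draining nodes (-0.70), and in MedRCs of live draining (-0.72) and fixed draining nodes (-0.50). The MRC libraries had 105, 91.8 and 98.5 CPM in live draining nodes, while live non-draining ones had 83.7, 99.4 and 139.7 and naive ones 180.4, 169, 145 and 179. The live draining value against naive turned round under the other normalization before clustering (1.11). In fLECs of fixed draining nodes, Fabp4 (log2 fold change -2.20, SE 0.40, adjusted p = 0.0014) and Cd36 (log2 fold change -2.08, SE 0.45, adjusted p = 0.01) were lower than in naive ones, and with another normalization before clustering the Cd36 difference turned round (log2 fold change 0.23). The Cd36 call was also lost without any 1 of naive replicate A, fixed draining replicate A and fixed draining replicate B. The 35 naive cells of the Cxcl9-led cluster held 944 CPM of Fabp4 and 980.2 CPM of Cd36.

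The wider lipid pathway was read from 7 lists with 145 genes, covering uptake, lipase control, droplets, lipoprotein receptors, synthesis, oxidation and regulators. In cLECs 32 of 111 tested list places were higher and 5 lower in live draining nodes, in MRCs 8 and 11 of 113, in macrophages 1 and 8 of 93, and in blood endothelial cells 0 and 1 of 62. The shares of all genes called there were 24.3%, 18.3%, 7.15% and 0.0492%. In fixed draining nodes 1 of 111 places was higher and 0 lower in cLECs, where 0.407% of all genes were called.

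Of the fatty acid and sterol synthesis list, 13 of 21 tested genes were higher and 0 lower in cLECs of live draining nodes, with a median log2 fold change of 0.83, against -0.01 over all genes. Among them were Cyp51 (log2 fold change 1.28, SE 0.20, adjusted p = 1.1e-05) of cholesterol synthesis, Fdps (log2 fold change 1.46, SE 0.19, adjusted p = 4.3e-07) of the isoprenoid branch, and the desaturase Scd2 (log2 fold change 0.72, SE 0.10, adjusted p = 6.8e-07). In fLECs the log2 fold changes of the same list had a median of -0.36 against -0.01 over all genes, with 6 of 23 above 0 and 17 below. Between the fixed nodes the fLEC median of the list was -0.12, with 7 of 23 above 0 and 16 below, so most lay below 0 there as well. In cLECs 0 of 21 were called between the fixed nodes. The interaction called 9 of 21 as more positive and 1 as more negative after live cells in cLECs, where it called 15.5% of all genes.

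**Figure D5:**
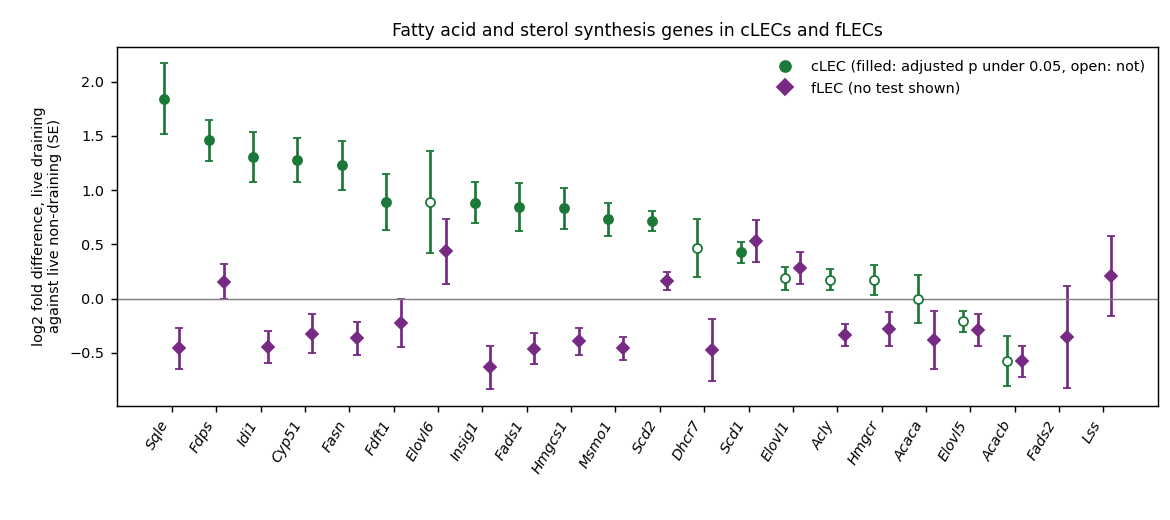
Log2 fold difference (bars: SE) of live draining against live non-draining nodes for genes of fatty acid and sterol synthesis in cLECs (green circles, filled where called) and fLECs (purple diamonds, a description with no test). The filled cLEC points, among them Fdps, Cyp51 and Scd2, all lie above 0, while most fLEC points lie below it. Between the fixed nodes, not drawn, most fLEC values were also below 0.

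Other genes of the lists changed in single types. In cLECs the acyl-CoA binding protein Dbi (log2 fold change 1.07, SE 0.08, adjusted p = 1.3e-12), the lipase inhibitor Angptl4 (log2 fold change 0.97, SE 0.11, adjusted p = 4e-08), the lipoprotein receptor Vldlr (log2 fold change 1.37) and the sterol regulator Srebf2 (0.67) rose, and the caveolar protein Cav1, 1 of the 6 cLEC markers (log2 fold change -1.29, SE 0.09, adjusted p = 2.3e-12) fell. In MRCs Fabp7, another fatty acid binding protein, rose (log2 fold change 1.75, SE 0.45, adjusted p = 0.0052), as did the heparan sulfate proteoglycan Hspg2 (log2 fold change 1.44, SE 0.14, adjusted p = 4.9e-09), and the droplet coat Plin4 fell (log2 fold change -1.83, SE 0.43, adjusted p = 0.0025). In macrophages the cholesterol exporters Abca1 (log2 fold change -1.01, SE 0.19, adjusted p = 0.0017) and Abcg1 (log2 fold change -0.94, SE 0.19, adjusted p = 0.0025), the ubiquitin ligase Mylip (log2 fold change -1.02, SE 0.18, adjusted p = 0.00066) and the desaturase Scd1 (log2 fold change -1.81, SE 0.36, adjusted p = 0.0025) fell in live draining nodes, and the droplet protein Plin3 rose (log2 fold change 0.95, SE 0.24, adjusted p = 0.015).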

How the data were processed

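The deposited matrices hold raw UMI counts for each barcode, produced by the authors from 10x Genomics 3′ v3 libraries with Cell Ranger 3.0.1 on mm10, per the labels' processing notes. Following the limits in the study's methods, 50386 barcodes with between 200 and 6000 genes and no more than 30% of UMIs from mitochondria were analysed. Scrublet (scanpy 1.11.5) marked 44 cells at its own threshold, too few to have worked, and 1464 (2.91%) by rank, a rule set after that. The marked cells stayed in except in 1 alternative.

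Cells were normalized with SCTransform (sctransform 0.4.2) and grouped by Louvain clustering (R 4.3.3, Seurat 5.3.0) on 2000 variable genes without the members, 20 principal components and a resolution of 0.8. LECs, fibroblastic cells and all other cells were then each clustered again. Clusters were named by their marker genes (Cd36, a marker in the study, was not used), with a scoring settled after the clusters had been seen, and 9138 cells stayed in unnamed clusters. The members, lists and comparisons were chosen with earlier results of these data known. The named genes are the members, up to 3 genes most like each and up to 4 of each list per type with the smallest p. Some genes that this would name are not reported here.

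UMI counts were summed per library and type with at least 10 cells and tested with edgeR 4.0.16 (TMM, filterByExpr, a quasi-likelihood fit over all groups), with Benjamini-Hochberg adjustment over the genes of a type and a call at 0.05. For shares of cells, 2000 UMIs were drawn from every cell that had them, and cells with fewer were dropped. On simulated counts between the live nodes, 97% of 4-fold and 71% of 2-fold changes were called in fLECs, 96% and 75% in cLECs, 98% and 80% in MRCs, 91% and 56% in macrophages and 78% and 32% in blood endothelial cells. The changed genes were drawn from all levels. Some calls fell on genes that had not been changed. Their share of the calls was 2.89% in fLECs, 6.56% in cLECs, 6.81% in MRCs, 10.9% in macrophages and 4.35% in blood endothelial cells. Alternatives were each library left out, DESeq2 1.42.0, no filter on low counts, at least 30 cells, at most 10% mitochondrial UMIs, doublets or cells with leukocyte transcripts left out, only the 12 libraries of inoculated mice, replicate letters as a block, LogNormalize in place of SCTransform, and members kept in the clustering.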

Additional observations from a re-analysis of the deposited data

Results flagged for a closer look

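In groups of 4 libraries, which only the naive group has, 68 sets of values with a mean of at least 100 CPM were checked for a library far from the rest, of which chance alone would give about 1 in 20. In 1 of them, Fabp5 in FDCs, naive replicate C at 1208.5 CPM lay apart from 871, 886 and 925 CPM, with a gap of 0.84 of the whole range.

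The other results are those in which the draining difference after live cells differed from the one after fixed cells, by the interaction term of the edgeR fit (values are log2, the difference of the 2 effects first, then the live and the fixed effect). In cLECs these were Cd36 (-1.17, from -1.18 and -0.01), Apoe (-1.40, from -1.35 and 0.05), Gpihbp1 (-0.98, from -1.29 and -0.30) and Fabp5 (0.86, from 0.74 and -0.12). In other LECs they were Fabp4 in the Clec4g-led cluster (2.90, from 2.71 and -0.19), Lpl in MedLECs (1.32, from 1.14 and -0.17), and Apoe in CorLECs (-1.28, from -1.28 and -0.01) and MedLECs (-1.11, from -0.92 and 0.19). Fabp4 (4.60, from 3.00 and -1.60) and Apoe (-1.42, from -0.83 and 0.58) in fLECs are a description. In reticular cells they were Apoe in MedRCs (-0.55, from -0.27 and 0.28) and, in activated stroma, Fabp4 (-2.52, from -1.83 and 0.69, at levels near those of lymphocytes), Lpl (-0.78, from -0.73 and 0.06) and Apoe (-0.67, from -1.03 and -0.36), of which Lpl and Apoe turned round with LogNormalize (0.28 each). Fabp5 in Cd209a dendritic cells (2.04, from 2.18 and 0.15) and Fabp4 in pericytes (2.13, from 0.58 and -1.56) were the others. Cd36, Fabp5 and Apoe in cLECs and Fabp4 in Clec4g-led LECs kept their call under every alternative that gave a value, while Gpihbp1 in cLECs lost it without any 1 of 7 libraries. Apoe in cLECs and CorLECs is at levels treated above as background and is not read as expression by those cells.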

How the results depend on the processing

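Between the live nodes 28 to 38 pairs were called over all alternatives that keep the filter (32 as reported), and 19 of the 32 were shared after LogNormalize, which redraws the types. Leaving out each library gave 29 to 38 calls between the live nodes, 0 to 5 between the fixed nodes, 10 to 16 for the interaction, and, against naive nodes, 32 to 39 for live draining, 2 to 6 for fixed draining, 3 to 7 for live non-draining and 2 to 9 for fixed non-draining. Without the filter on low counts the calls were 16 between the fixed nodes, 36 for the interaction, and, against naive nodes, 16 for fixed draining, 21 for live non-draining and 30 for fixed non-draining. With at least 30 cells, and with at most 10% mitochondrial UMIs, 2 were called between the fixed nodes, and the mitochondrial limit gave 5 for fixed non-draining against naive. LogNormalize gave against naive nodes 2 calls for fixed draining, 3 for live non-draining and 16 for fixed non-draining, and members kept in the clustering gave 3 for fixed draining against naive.

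The replicate block gave 32 calls between the live nodes, 5 between the fixed and 6 (against 10) for fixed non-draining against naive. Whether the letters pair the libraries was not settled. Of 54 same-letter correlations, which ran from -0.05 to 0.14, 21 were the highest of their letter. With 3 libraries per inoculated group these values cannot exclude pairing.

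Of 1907 values for single pairs, 1598 kept direction and call, 297 lost the call, 1 gained it and 11 changed sign. With LogNormalize these were Lpl in activated stroma (0.57 between the live nodes, 0.28 in the interaction, 0.80 against naive), Lpl in macrophages (-0.79 between the live nodes, -0.31 against naive), Apoe in activated stroma (0.28, interaction) and MRCs (0.21), Pltp in MRCs (1.11, live draining against naive) and Cd36 in fLECs (0.23, fixed draining against naive). Fabp4 in blood endothelial cells, not called at 0.52, ran from -0.53 (without live draining replicate A) to 0.89 (without live draining replicate C) and was -0.44 without cells holding leukocyte transcripts. The cause was not tested. Between the live nodes Cd36, Fabp5, Gpihbp1 and Apoe in cLECs, both Fabp genes in Clec4g-led LECs, Fabp5 in macrophages, MedLECs and both dendritic cell types, and Lpl in MRCs, MedRCs and TRCs were called under every alternative. Of these, Apoe in cLECs is at a level treated above as background, and Fabp5 in MedLECs is within the levels of T cells. Without doublets, 334 of 1040 mean levels were at least 100 CPM (337 with them). Unthinned, 523 of 1016 shares were at least 10% (379 thinned).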
